A study of Mus musculus with 24 samples.

Results

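The genes encoding the proteins of the cytosolic ribosome were followed in fat from mice whose kidney mass had been reduced by surgery and from sham-operated mice. They were taken by symbol: Rpsa, Rplp0, Rplp1, Rplp2, and every gene named Rpl or Rps followed by digits and at most 1 of the letters a, l or x, with pseudogenes carrying -ps in their symbol left out. This gave 83 of the 54232 genes in the count table, 51 of the large subunit and 32 of the small subunit. The annotation typed 80 of them as protein-coding and 3 (Rpl6l, Rpl32l and Rps4l) as processed pseudogenes. All 83 had more than 10 counts over the 24 libraries and were among the 26116 genes tested.

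The 24 libraries came from C57BL6 mice 10 weeks old, 6 in each of 4 groups. Control mice had a sham operation and a lentivirus expressing GFP. NaKtide mice had the sham operation and a lentivirus expressing NaKtide, a peptide that blocks signaling from the Na/K-ATPase to the kinase Src. PNx mice had partial nephrectomy and the GFP virus, and PNx+NaKtide mice had partial nephrectomy and the NaKtide virus. All mice therefore received a virus by intraperitoneal injection, and both inserts were driven by the promoter of adiponectin, an adipocyte hormone. Libraries held 679250 to 2979505 counts. CPM is the count relative to the TMM-scaled library size, on the usual CPM scale. On it 3 counts, taken here as the floor, stood for 0.739 CPM in the deepest library and 5.91 CPM in the shallowest.

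Each cytosolic ribosome is built from 1 copy of most of these proteins on a scaffold of ribosomal RNA, and cells keep the proteins close to equal amounts. Their mRNAs are abundant, short and stable, and most begin with a C followed by a run of pyrimidines, the 5′ terminal oligopyrimidine (TOP) motif, through which the kinase mTORC1 and the protein LARP1 control their translation. RNA levels as measured here do not report that translational control. A few members have a second copy made in restricted tissues, such as Rpl3l in striated muscle and Rpl10l and Rpl39l in male germ cells.

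To show the start of these mRNAs, windows of 10 bases before to 20 after the annotated start are printed for genes on which the results turn. They are RefSeq sequences of build GRCm38.p6, given 5′ to 3′ on the strand of the gene, with the longest run of at least 5 pyrimidines in capitals. Rpl35 and Rps18 are among the most counted members, Rpl13a and Rps28 did not follow the other members, and Rpl39 stands beside its paralog Rpl39l, with Rpl10l as the second germ cell copy.
Rpl35, chr2:39005112-39005141, minus strand: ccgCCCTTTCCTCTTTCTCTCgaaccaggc
Rps18, chr17:33955646-33955675, minus strand: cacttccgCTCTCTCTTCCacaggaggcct
Rpl13a, chr7:45128726-45128755, minus strand: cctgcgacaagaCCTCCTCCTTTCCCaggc
Rps28, chr17:33824543-33824572, minus strand: cgcgtgcggtctcgcgagagcgaaagtgag
Rpl39, chrX:37085203-37085232, minus strand: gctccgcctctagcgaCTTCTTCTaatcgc
Rpl39l, chr16:10170218-10170247, plus strand: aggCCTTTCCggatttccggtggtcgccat
Rpl10l, chr12:66284382-66284411, minus strand: CCTCCattttgcggctggcggtgggcacgc
The run was 18 bases long in Rpl35, 11 in Rps18, 14 in Rpl13a, 8 in Rpl39, 7 in Rpl39l and 5 in Rpl10l, and Rps28 had no run of 5 in its window. Relative to the annotated start, it began at -7 in Rpl35, -2 in Rps18, 3 in Rpl13a, 7 in Rpl39, -7 in Rpl39l and -10 in Rpl10l. Only the runs of Rpl35 and Rps18 spanned the annotated start. Those of Rpl39l and Rpl10l ended before it, outside the annotated mRNA, and those of Rpl13a and Rpl39 began after it. The capitals alone therefore do not mark a TOP motif.

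RefSeq promoter windows of 250 bases before to 50 after the start were matched for 61 of the 83 members. A C at the annotated first base followed by 4 pyrimidines was present in 14 of these 61 (23%), against 3.01% of 27025 genes with a window. A run of 8 pyrimidines beginning with C, from 10 bases before to 20 after the start, was present in 24 members (39.3%) and in 10.1% of all genes. In the whole window and on either strand, CCGGAAG, the core recognised by ETS factors, was found in 41.0% of members and 9.93% of all genes, and AAGATGG, the YY1 core, in 14.8% and 7.28%. GGGCGG was found in 59.0% and 38.2%, TGACGT in 19.7% and 8.37%, and TATAAA in 11.5% and 15.7%. Annotated starts need not be the starts used in this tissue: of 73 member windows, 48 had their bases 5 to 34 after the start inside a GENCODE transcript of the same gene.

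Per unit length, ribosomal protein mRNAs were among the higher of the protein-coding genes. The median of their mean FPKM (fragments scaled by gene length and library size, as deposited) was 27.9, against 1.26 for protein-coding genes tested. Percentiles were taken over all protein-coding genes in the count table, tested or not. Of the 80 protein-coding members, 65 lay above the 90th percentile. Rpl36 (296 FPKM), Rpl26 (236 FPKM) and Rpl23a (153 FPKM) had the highest levels, and Rpl13a (1.60 FPKM), Rps15a (2.48 FPKM) and Rpl35a (2.63 FPKM) the lowest, Rpl13a at percentile 65.8. By raw counts the range ran from 141 for Rpl39l to 13784 for Rpl26, and the best placed member ranked 492 among all genes.

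Near-identical copies limit what these counts can say of single members. The 300 genes in the table named as ribosomal protein pseudogenes held 189817 counts, 0.823 times the 230604 counts of the 83 members, and 261 of the 300 had at least 1 count. Of the 60 members with such a pseudogene, 25 had fewer counts than their pseudogenes together: for Rpl17 the pseudogenes held 23 times the counts of the gene, for Rpl35a 20.7 times, for Rps12 12.3 times and for Rpl10 11.4 times. How the counting step treated reads that match several places was not given in the sources used here, so levels of these members are uncertain.

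Taken as a whole, the members held a small and variable share of each library. The share was 0.539% ± 0.203 (SD, n = 6) in Control, 0.602% ± 0.159 in NaKtide, 0.538% ± 0.390 in PNx and 0.630% ± 0.296 in PNx+NaKtide. In the PNx group replicates 1, 2 and 3 held 0.226%, 0.212% and 0.415%, and replicates 4, 5 and 6 held 0.396%, 0.753% and 1.23%. Replicates 1 and 2 were the lowest of all 24 libraries and replicate 6 the highest, so that the PNx group contained both ends of the range. In bulk tissue, fewer cells of a type and less RNA per cell cannot be told apart.

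**Figure D1:**
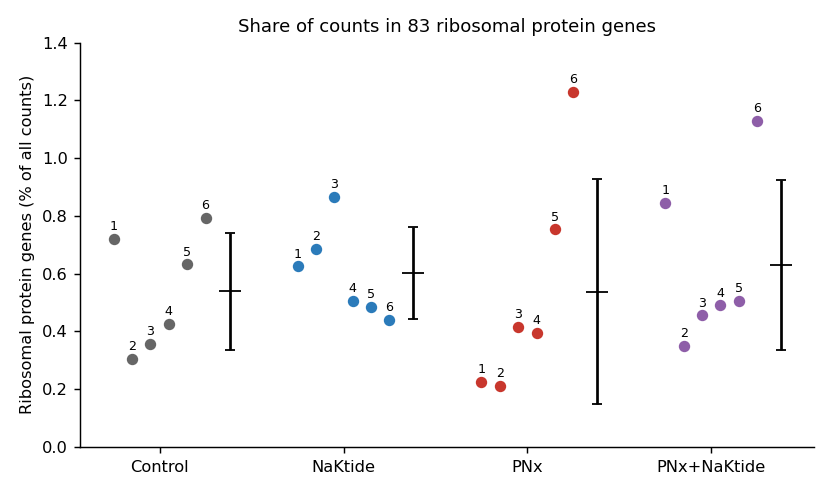
Share of all counts (percent, y axis) that fell in the 83 ribosomal protein genes, 1 point per library numbered by replicate, with the group mean and SD (n = 6) as bars. The PNx libraries spread from 0.212% to 1.23%, wider than the Control libraries, and the group means lie within that spread.

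The members rose and fell together from library to library. Over the 24 libraries the median Spearman correlation between 2 members was 0.773, against 0.02 between any 2 genes tested, given as a description since all values share the libraries and their scaling. Rps7 had the highest median correlation with the others, and 4 members lay under 0.3: Rpl10l (-0.35), Rpl39l (-0.32), Rpl13a (-0.16) and Rps28 (-0.06).

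Relative to the Control mean, the median member was at -1.93, -1.86 and -0.84 log2 units in PNx replicates 1, 2 and 3 and at -0.11, 0.56 and 0.94 in replicates 4, 5 and 6. In replicates 1, 2 and 3, 70, 72 and 46 of the 83 members lay below every Control library, where 28.9%, 28.4% and 25.8% of all genes did. In PNx replicate 6, 55 members lay above every Control library, against 32.9% of all genes. For 68 members the 3 lowest PNx libraries were replicates 1, 2 and 3, an order found in 22.4% of all genes tested. In PNx+NaKtide, replicate 6 was highest, with a median of 1.13 and 71 members above the Control range, against 15.6% of all genes. The SD of the member median over libraries was 1.21 in PNx, 0.58 in Control and 0.59 in PNx+NaKtide.

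**Figure D2:**
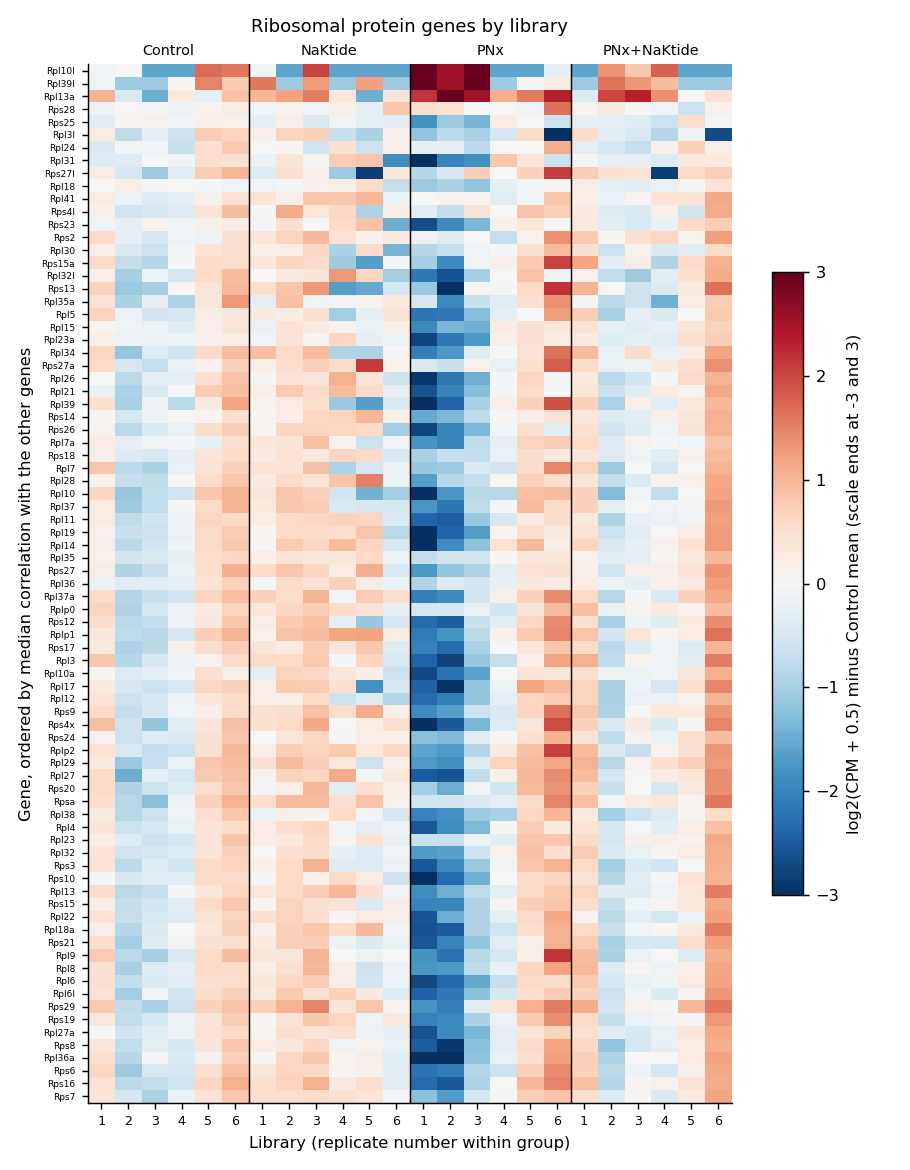
Level of 81 ribosomal protein genes (rows) in each library (column, by group and replicate), as log2(CPM + 0.5) minus the Control mean of the gene, with the color scale ending at -3 and 3. Most rows are blue in PNx replicates 1 and 2 and red in PNx replicate 6 and PNx+NaKtide replicate 6, and the rows at the top (Rpl10l, Rpl39l, Rpl13a, Rps28) do not follow them.

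Markers of other tissues set some of the same libraries apart, but not all. The summed level of 17 epididymis markers was 6.90 CPM in PNx replicate 1, 325 CPM in the second library of that group, 789 CPM in the third and 170 CPM in the sixth. It was 36.2 CPM in NaKtide replicate 6 and 1160 to 2920 CPM in the other 19 libraries. The 18 adipocyte markers summed to 8500 CPM in the sixth PNx library and 6070 CPM in the sixth NaKtide library, and to 152 to 1390 CPM elsewhere, although all libraries were labelled adipose tissue. The sixth PNx library also had the highest sums of 7 erythrocyte markers (1630 CPM, against 12.1 to 245 elsewhere) and of 10 endothelium markers (744 CPM, against 54 to 557 elsewhere). PNx+NaKtide replicate 6, where most members were high, had 2060 CPM of epididymis and 599 CPM of adipocyte markers, and NaKtide replicate 6 had a member share of 0.441%, inside the Control range. Adipoq, the adiponectin gene, averaged 31.0 ± 19.4 CPM (SD) in Control, 46.8 ± 58.4 in NaKtide, 115 ± 124 in PNx and 28.3 ± 18.4 in PNx+NaKtide. In edgeR its fold change was 1.89 ± 0.79 (SE, log2, adjusted p 0.159) in PNx against Control. In PNx+NaKtide against PNx it was -2.01 ± 0.80 (adjusted p 0.357). The part of this in the levels of ribosomal protein genes was not tested.

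To ask what renal failure did to these genes, PNx was compared with Control. None of the 83 members passed the BH-adjusted p-value of 0.1 in edgeR's quasi-likelihood test, where 0.0766% of all genes did, and the lowest adjusted p of a member was 0.128. The fold change was below 0 for 61 members and above 0 for 22, with a median of -0.20 on the log2 scale against 0.36 over all genes tested. This negative sign was not kept under DESeq2 size factors, where the member median was 0.07 and that of all genes 0.76. At an unadjusted p-value of 0.05, 2 members were higher (Rpl13a and Rpl39l; 18.5% of all genes) and 0 were lower (6.88% of all genes). DESeq2 called 4 members, all higher, where it called 29.7% of all genes. Limma voom with sample weights called 59 members lower (30.9% of all genes) and 3 higher (32.6%). Without PNx replicates 1, 2 and 3 the member median was 0.35 against -0.05 for all genes.

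To ask what NaKtide did in renal failure, PNx+NaKtide was compared with PNx. Again 0 members were called (0% of all genes), with a lowest adjusted p of 0.373. The fold change was above 0 for 70 members and below 0 for 13, with a median of 0.38 against -0.37 for all genes. At an unadjusted p-value of 0.05, 0 members were higher (4.07% of all genes) and 1, Rpl39l, was lower (8.6%). DESeq2 called 2 members, both lower, and 5.8% of all genes. Limma voom with sample weights called 59 members higher (23.8% of all genes) and 3 lower (18.6%). Without PNx replicates 1, 2 and 3 the median was -0.17. Both comparisons use the same 6 PNx libraries, so their opposite signs are not independent of each other.

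**Figure D3:**
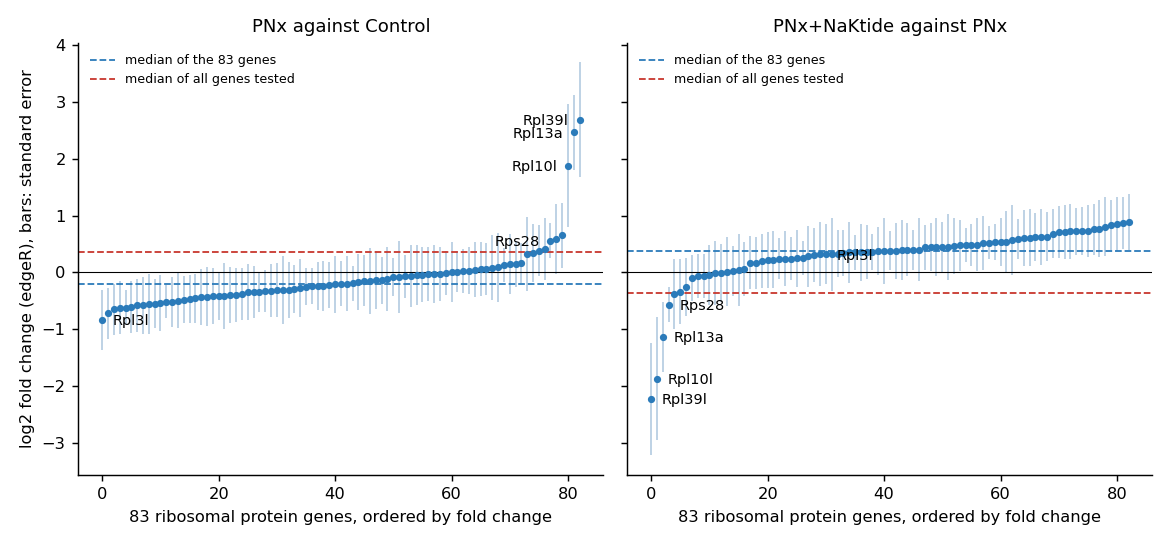
Log2 fold change of each of the 83 ribosomal protein genes (points, bars: standard error of edgeR) in PNx against Control (left) and PNx+NaKtide against PNx (right), with dashed lines at the median of these genes and of all genes tested. On the left the gene median is -0.20 and turns to 0.07 under DESeq2 size factors; on the right it is 0.38; both panels contain the same PNx libraries.

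In the sham mice, NaKtide against Control gave 71 members above 0 and 12 below, with a median of 0.20 against 0.00 for all genes. No member was called (0% of all genes), and none passed an unadjusted p-value of 0.05 (2.04% of all genes higher, 1.91% lower). PNx+NaKtide against NaKtide gave 36 above and 47 below 0, with a median of -0.04 against 0.04, 0 called (0%) and none at the unadjusted p-value of 0.05 (1.5% higher, 2.58% lower). The interaction of nephrectomy and NaKtide had a median of 0.20 against -0.35, 0 called (0%), 0 higher at the unadjusted p-value of 0.05 (3.48%) and 1 lower, Rpl13a (5.79%). DESeq2 called 0 members in all 3, where it called 0.0115%, 0.00766% and 0.36% of all genes. Voom called 0 members in the first and second of these (0.00766% and 0% of all genes) and 20 in the interaction (25.2%).

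Rplp0, Rplp1 and Rplp2 form the stalk that recruits the translation factors, and Rpsa, the small subunit protein also known as the laminin receptor, sits near the mRNA exit. Rplp0 had a lowest, median and highest level of 48.5, 95.8 and 145 CPM in Control and 61.2, 71.4 and 177 CPM in PNx. The fold change was -0.08 ± 0.34 (SE). Rplp1 ranged from 21.3 to 78.3 CPM in Control and from 8.62 to 107 CPM in PNx, Rplp2 from 18.9 to 61.6 and from 9.29 to 131 CPM, and Rpsa from 17.8 to 89.7 and from 28.3 to 122 CPM. For all 4 genes the PNx libraries went beyond the Control range at 1 or both ends, and the fold changes lay between -0.08 and 0.34.

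Rps6 is the substrate of the S6 kinases, which act below mTORC1. It measured 124, 38, 58, 56, 112 and 147 CPM in Control replicates 1 to 6 and 16.8, 18.2, 43.7, 51.8, 131 and 215 CPM in PNx replicates 1 to 6. The lowest 2 and the highest of these 12 values were PNx libraries, and the fold change was -0.17 ± 0.50. Rpl5 and Rpl11, which bind Mdm2 when ribosome assembly fails, had fold changes of -0.32 ± 0.47 and -0.61 ± 0.46. Rpl11 had a lowest, median and highest level of 45.0, 78.8 and 119 CPM in Control and 13.3, 44.2 and 110 CPM in PNx. Rps19, mutated in Diamond-Blackfan anemia, was at -0.03 ± 0.48, and Rps27a, made as a fusion with ubiquitin, at 0.38 ± 0.45.

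Of the 10 members with the highest mean CPM, 9 had a fold change below 0 in PNx against Control: Rpl26 (-0.62 ± 0.46), Rps25 (-0.62 ± 0.31), Rpl19 (-0.58 ± 0.50), Rpl31 (-0.54 ± 0.49), Rpl23a (-0.47 ± 0.42), Rpl4 (-0.42 ± 0.42), Rps18 (-0.24 ± 0.32), Rpl35 (-0.19 ± 0.31) and Rps24 (-0.07 ± 0.38). Rpl26 measured 344, 198, 289, 284, 490 and 628 CPM in Control and 45.8, 77.5, 126, 332, 544 and 332 CPM in PNx. PNx replicates 1, 2 and 3 were below every Control library and the other 3 were inside the Control range. Rps25 measured 281 to 397 CPM in Control, 102, 167 and 135 CPM in PNx replicates 1, 2 and 3, and 415, 354 and 229 CPM in PNx replicates 4, 5 and 6. Its adjusted p was 0.199. None of these 9 fold changes passed the test.

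Rps28 was the exception among the 10. It measured 107, 118, 117, 107, 131 and 139 CPM in Control and 171, 161, 119, 121, 109 and 379 CPM in PNx, so replicates 1, 2 and 6 lay above the Control range. The fold change was 0.56 ± 0.31 with an adjusted p of 0.234, and -0.57 ± 0.31 with an adjusted p of 0.412 in PNx+NaKtide against PNx.

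Rpl13a, a member used as a reference gene in quantitative PCR, gave the lowest unadjusted p-value of the list. It measured 2.32, 0.5, 0, 1.17, 0.617 and 2.01 CPM in Control, and 5.67, 12.9, 7.32, 2.36, 3.56 and 6.42 CPM in PNx. It was the only member whose PNx libraries all lay above all Control libraries, as 0.119% of all genes did. The closest values, 2.36 CPM in PNx replicate 4 and 2.32 CPM in Control replicate 1, stood for 3 and 5 counts. The first of these was at the floor. Control replicates 2 to 6, with 1, 0, 2, 1 and 3 counts, were at or under the floor as well. The gene had 165 counts in all. The fold change was 2.47 ± 0.66 (unadjusted p-value 0.000821, adjusted p 0.128). NaKtide libraries ran from 0 to 3.49 CPM and PNx+NaKtide libraries from 0.554 to 6.43 CPM, and PNx+NaKtide against PNx was at -1.14 ± 0.61 (adjusted p 0.413). Rps18, also used as a reference gene, was at -0.24 ± 0.32 in PNx against Control.

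The second copies did not all move with their parent genes. Rpl39l measured 8.87, 5.65 and 15.1 CPM in PNx replicates 1, 2 and 3, and 0, 0.594 and 0.755 CPM in replicates 4, 5 and 6. Control libraries ran from 0 to 2.47 CPM. Its fold change was 2.69 ± 1.01 (adjusted p 0.141) in PNx against Control and -2.23 ± 0.99 (adjusted p 0.373) in PNx+NaKtide against PNx, and without PNx replicates 1, 2 and 3 both turned sign, to -0.62 and 1.03.

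Rpl10l showed the same libraries, with 12.8, 8.08 and 14.9 CPM in PNx replicates 1, 2 and 3 and 0, 0 and 0.755 CPM in replicates 4, 5 and 6. Control libraries ran from 0 to 4.32 CPM, and 11 of the 24 libraries had no count. Its fold change was 1.88 ± 1.08 (adjusted p 0.253). Without PNx replicates 1, 2 and 3 it was -2.16, with both groups then near the floor. Over the 24 libraries Rpl39l and Rpl10l had a Spearman correlation of 0.807. Their parents were low there, with 5 of the 6 values below every Control library: Rpl39 measured 2.46, 5.65 and 15.9 CPM and Rpl10 2.96, 7.67 and 14.9 CPM in PNx replicates 1, 2 and 3, where Control libraries ran from 16 to 72.9 and from 12 to 55.5 CPM.

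Markers of male germ cells were highest in the same 3 libraries. The 20 markers, all of them tested, summed to 2370, 2190 and 2670 CPM in PNx replicates 1, 2 and 3, to 731 to 1070 CPM in the other 3 PNx libraries, and to 692 to 1380 CPM in Control, 864 to 1580 CPM in NaKtide and 559 to 1950 CPM in PNx+NaKtide. For the 14 markers without an opposite-strand gene the sums were 1150, 1060 and 1420 CPM in PNx replicates 1, 2 and 3 and 257 to 703 CPM in Control. These sums were 14.9 to 866 CPM in NaKtide, and 791, 983 and 1040 CPM in PNx+NaKtide replicates 2, 3 and 4. For all 20 markers the latter libraries had 1590, 1870 and 1950 CPM. In the PNx+NaKtide group only these replicates had counts of Rpl10l (3.34, 2.14 and 4.61 CPM) or Rpl39l (2.79, 2.14 and 1.54 CPM). Dazl, with only 32 counts in all, was at 0 in every NaKtide library. The median fold change of the 20 markers in PNx against Control was 1.30. Spata3 (-0.83 ± 0.61), Gapdhs (-0.34 ± 0.25) and Hspa1l (-0.28 ± 0.29) were below 0 and the other listed markers above. The part of these cells in the levels of Rpl39l and Rpl10l was not tested.

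**Figure D4:**
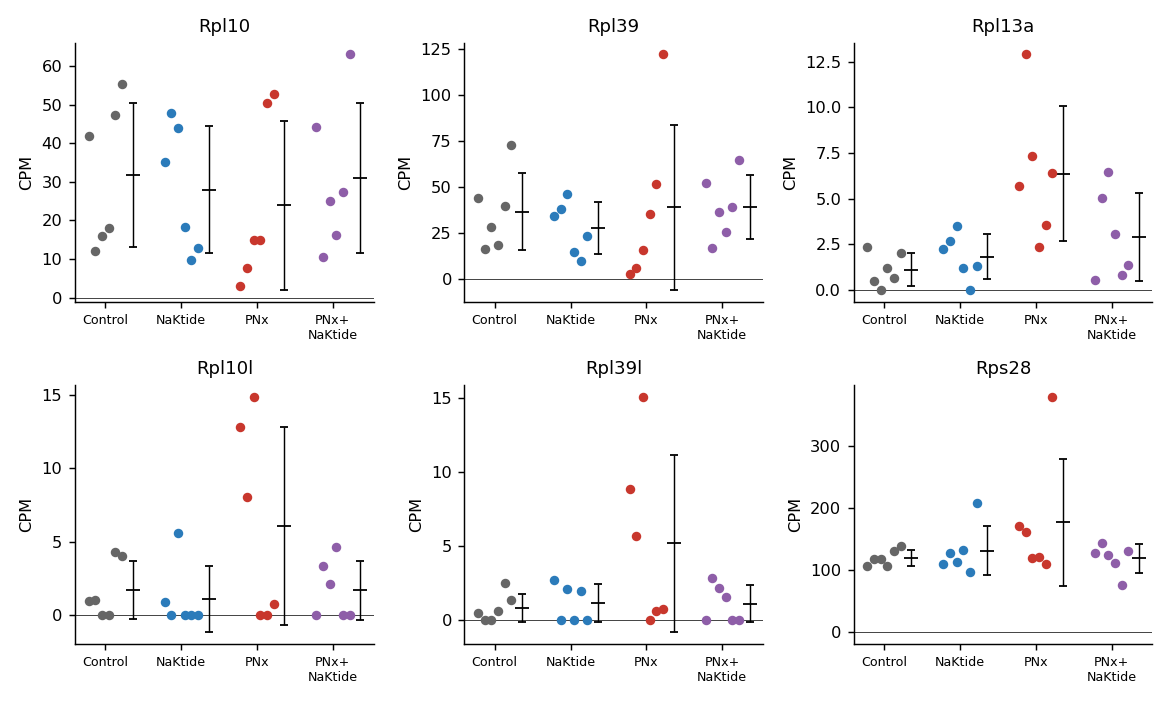
CPM (y axis, each panel with its own scale) of Rpl10, Rpl39 and their germ cell paralogs Rpl10l and Rpl39l, and of Rpl13a and Rps28, 1 point per library in replicate order within each group, with mean and SD (n = 6). Rpl10l and Rpl39l are above 5 CPM in PNx replicates 1, 2 and 3, the libraries in which Rpl10 and Rpl39 are at 2.46 to 15.9 CPM.

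The other second copies had group fold changes nearer to those of their parents, but those of Rps27l and Rps4l had the opposite sign. Rpl3l measured 9.01 to 27.1 CPM in Control and 0.755 to 23.2 CPM in PNx, with a fold change of -0.84 ± 0.53 against -0.43 ± 0.52 for Rpl3. By library the pair did not always move together: Rpl3l was lowest in PNx replicate 6 (0.755 CPM) and PNx+NaKtide replicate 6 (2.04 CPM), where Rpl3 was the highest of its group (114 and 145 CPM). In NaKtide replicate 6, where 12 skeletal muscle markers summed to 6360 CPM against at most 115 CPM elsewhere, Rpl3l was at 17.5 CPM, inside the range of the other NaKtide libraries. Rps27l, a p53 target, measured 1.18 to 6.69 CPM in Control and 1.48 to 14.7 CPM in PNx (0.59 ± 0.62). It was at -0.03 once the sixth PNx and NaKtide libraries were left out, and at -0.38 ± 0.62 in PNx+NaKtide against PNx. Its parent Rps27 was at -0.48 ± 0.42. Rps4l, typed as a processed pseudogene, was at 0.15 ± 0.41 and its parent Rps4x at -0.08 ± 0.64.

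Of the members at the ends of the 2 main comparisons, those not yet given were of the same size. In PNx against Control Rps26 was at -0.72 ± 0.45 and Rpl21 at -0.65 ± 0.45. In PNx+NaKtide against PNx, Rps26 (0.87 ± 0.45), Rpl6 (0.85 ± 0.48), Rpl10a (0.83 ± 0.44) and Rpl3 (0.80 ± 0.52) were among the highest, with adjusted p-values of 0.408 to 0.460. Rps26 measured 11.3, 20.2, 30.8, 75.4, 111 and 63.0 CPM in PNx and 109, 53.5, 61.4, 75.2, 105 and 164 CPM in PNx+NaKtide, and the groups overlapped.

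Genes on the opposite strand bear on several members. The kit was stranded, but the strand setting of the counting was not given in the sources used here, so reads of such a pair cannot be told apart with certainty. Exons of 18 members (21.7%) shared bases with an opposite-strand gene, against 24% of protein-coding genes. Of the 17 partners with a count, 9 had more counts than the member (52.9%, against 57.5% over 5190 protein-coding genes with such a partner), and the partners summed to 500437 counts against 70662 for the members.

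Wdr38 shares 821 exon bases with Rpl35 on chromosome 2 and held 163873 counts to 6355 for Rpl35, rank 20 of all genes. Tlcd1 shares 506 bases with Rpl23a on chromosome 11 and held 117677 counts to 5422, rank 30. D730044K07Rik held 41884 counts to 1170 for Rpl30. Without the overlapping members the median fold change was -0.15 in PNx against Control and 0.38 in PNx+NaKtide against PNx.

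**Figure D5:**
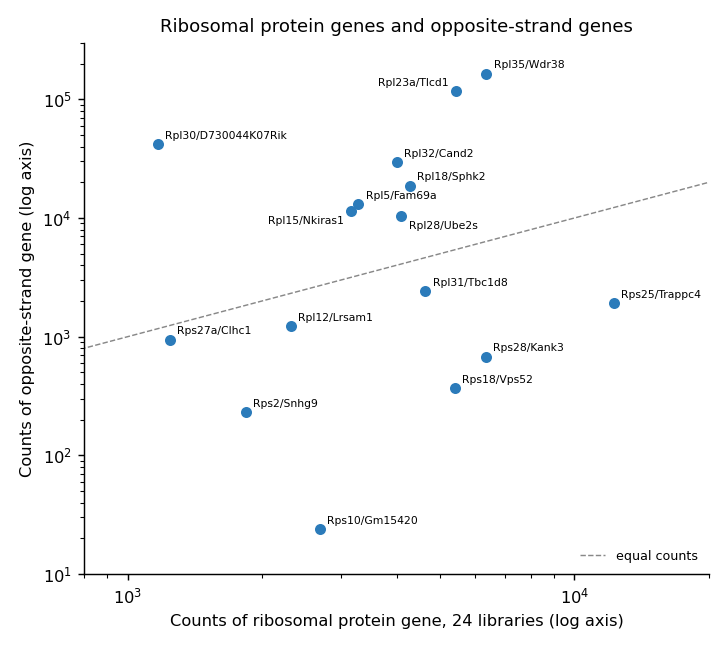
Total counts over 24 libraries of 16 of the ribosomal protein genes (x axis, log scale) and of the opposite-strand gene that shares most exon bases with each (y axis, log scale), with a dashed line at equal counts. The pairs above the line, with Rpl35/Wdr38 at the top, have more counts in the opposite-strand gene.

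Other genes of the same machinery were read in the same fit, and none was called. The 7 ribosomal protein genes outside the symbol rule had a median of -0.20 in PNx against Control. Among them Fau was at -0.39 ± 0.43 and Rps3a1 at -0.35 ± 0.49, and Rpl22l1 passed the unadjusted p-value of 0.05 (1.43 ± 0.69) and shares exon bases with an opposite-strand gene. Their sum was 76.6, 95.7 and 134 CPM in PNx replicates 1, 2 and 3 and 308, 400 and 491 CPM in replicates 4, 5 and 6, against 200 to 429 CPM in Control.

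Of 45 ribosome biogenesis genes, 3 were higher at the unadjusted p-value of 0.05 (Nop14, Wdr12 and Polr1a, a subunit of RNA polymerase I) and 1 was lower (Polr1e, another subunit), with a median of 0.25. Across all genes 18.5% were higher and 6.88% lower at this p-value, above the share of each of these lists. Nop14, Wdr12 and Polr1a share exon bases with an opposite-strand gene. Polr1a was at 2.08 ± 0.60 and Polr1e at -1.31 ± 0.54. Of 39 translation factors, 4 were higher (Eif4a2, Eif5, Pabpc1 and Btf3, of which Eif4a2 and Btf3 have such a partner) and 0 lower, with a median of 0.26. The elongation factor genes Eef1a1 (-0.18 ± 0.46) and Eef2 (-0.07 ± 0.37), whose mRNAs also carry a TOP motif, lay near 0. Of 31 tested genes of mTORC1 and TOP mRNA control, 1 was higher (Tbc1d7, 2.12 ± 0.73) and 1 lower (Lamtor4, -0.99 ± 0.44), with a median of 0.25, while Mtor was at -1.24 ± 0.66 and Larp1 at 0.75 ± 0.44. The median of all genes in this comparison was 0.36.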

How the data were processed

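Stranded mRNA libraries of adipose tissue, 1 per mouse, were sequenced for 24 mice. Per the labels' processing notes the authors used Trimmomatic 0.38, HISAT2 2.1.0 and DESeq2 1.20.0 with genome GRCm38, and the study's methods name GenomicAlignments for counting. The authors deposited raw counts per gene, used for all tests, FPKM, used for levels per length and as alternatives, and normalized counts, not used here. Groups and replicate numbers came from the labels. Symbols, types and strands came from GENCODE M21, which matched 54165 of 54232 genes (99.9%). All columns of per-sample values had a sample.

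Genes with more than 10 counts over all libraries were tested with edgeR 4.0.16 (quasi-likelihood, robust, TMM scaling, 1 fit of 4 group means, R 4.3.3), with Benjamini-Hochberg adjustment over all 26116 genes and a threshold of 0.1. Alternatives used limma 3.58.1, DESeq2 1.42.0, other scalings and filters, and left out libraries. The pipeline was tested on simulated data. Values in CPM used a pseudocount of 0.5 on the log scale. Each mouse is 1 library. The edgeR p-values set group differences against a spread between libraries that was estimated over all 4 groups together. Floors cover counting error only.

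Genes named with values were the stalk genes and Rpsa, members with a known role (Rps6, Rpl5, Rpl11, Rps19, Rpl13a, Rps18, Rps27a), 5 parent and paralog pairs, the 10 members with the highest mean CPM, the 5 highest and 5 lowest fold changes at a mean of at least 1 CPM in both main comparisons, and opposite-strand genes. Results of 2 members, which stay in all counts and medians, are not reported here by name. Members and gene lists were chosen with earlier results of these data known. PNx replicates 1, 2 and 3 together, PNx replicate 6 and NaKtide replicate 6 together, and the processed pseudogenes were left out in alternatives chosen after seeing the data.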

Additional observations from a re-analysis of the deposited data

Results flagged for a closer look

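Each of the 34 named members and the members' share was examined for a library apart from the other 5 of its group, by Dixon's criterion, over 140 groups. Chance alone gives about 1 in 20 groups, and 12 were found. The groups are not independent, since the members rose and fell together in shared libraries, so no excess over chance is read from this count. PNx replicate 6 was apart for Rpl5 (185 CPM), Rps27a (77.0 CPM), Rps27l (14.7 CPM), Rps4x (146 CPM) and Rps28 (379 CPM), each time as the highest. PNx+NaKtide replicate 6 was the highest for Rps27a (56.3 CPM), Rps27 (89.6 CPM) and Rpl35 (285 CPM). The others were Rps27a in NaKtide replicate 5 (92.5 CPM), Rpl10l in NaKtide replicate 3 (5.59 CPM), Rps28 in NaKtide replicate 6 (208 CPM), and Rps27l in PNx+NaKtide replicate 4, which was the lowest at 0 CPM.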

How the results depend on the processing

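The members called in PNx against Control numbered 4 with DESeq2 size factors, 3 with library size scaling, 1 with the filterByExpr filter, 4 in DESeq2 and 62 in limma voom with sample weights, where 33.3%, 15.7%, 17.9%, 29.7% and 63.5% of all genes were called. It was 2 without PNx replicate 6 and NaKtide replicate 6 (21.8% of all genes), and 0 to 5 when single libraries were left out (3, 5 and 2 without PNx replicate 4, 5 and 6, beside 33.2%, 23.2% and 14.8% of all genes). The member median turned to 0.07 (DESeq2 size factors), 0.05 (library size), 0.07 (DESeq2) and 0.35 (without PNx replicates 1, 2 and 3), and ranged from -0.58 to -0.03 over single libraries left out. Relative to all genes it turned only without PNx replicates 1, 2 and 3, to 0.40. For PNx+NaKtide against PNx, DESeq2 called 2 (5.8% of all genes) and voom 62 (42.4% of all genes). There the median without PNx replicates 1, 2 and 3 was -0.17, and -0.16 relative to all genes, and over single libraries left out it was 0.14 to 0.78 with 0 called. The interaction had 20 called in voom (25.2% of all genes). Without PNx replicates 1, 2 and 3, Rpl21 was at 0.02, Rpl26 at 0.08, Rpl10l at -2.16 and Rpl39l at -0.62 in PNx against Control, and Rpl39l at 1.03 and Rpl10l at 2.15 in PNx+NaKtide against PNx. When PNx replicate 6 and NaKtide replicate 6 were left out, Rps27l was at -0.03 and 0.25 in these comparisons. Over single libraries left out Rps27l was at -0.03 to 0.85 and -0.58 to 0.25. The cause was not tested.

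Equal replicate numbers did not meet the criterion for pairing, a correlation over 0.1 in every pair: 19 of 36 pairs did, from -0.592 to 0.712. Their median was 0.1245, against -0.0545 for other pairs, and 10 of 24 libraries correlated best with their own number. With the replicate block 0 members were called in any of the 5 comparisons, where 0% to 0.00766% of all genes were. In PNx+NaKtide against PNx, 11 members were higher at an unadjusted p-value of 0.05 (6.51% of all genes), where 0 were without the block. The medians were -0.35 in PNx against Control and 0.51 in PNx+NaKtide against PNx. Libraries of 679250 counts and up limit members under about 5.91 CPM, such as Rpl13a, Rpl10l and Rpl39l.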
